A study of Homo sapiens with 4 samples.

Results

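Mitochondrial ribosomal proteins are the nuclear-encoded proteins of the ribosome inside mitochondria. Their genes were followed in OPM2 cells, an established human multiple myeloma line, with and without VS-5584, a drug that blocks mTOR and the class I PI3 kinases. The members are all genes whose symbol begins with MRPL or MRPS and a number, and whose array probe set the platform annotation assigns to 1 gene. Of 18377 genes on the array 73 met this rule, 48 with a large-subunit (MRPL) and 25 with a small-subunit (MRPS) symbol, and all 73 were bright enough to be tested. MRPL51, MRPS6, MRPS24 and MRPS28, which share their probe set with another gene, were not analysed here. MRPL20 and MRPS18B have 2 and 3 probe sets with identical values, and 1 of each was used.

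The study has 2 groups of 2 cultures, all harvested at 24 h: control cells given the solvent DMSO, and cells given VS-5584 (also named SB2343) at 123 nM per the sample labels, or 125 nM per the design text. All 4 cultures were of this 1 line, in medium with serum. The titles call the replicates biological without saying how the cultures were separated, so p-values measure the spread between these samples, which may be technical. Precision is limited by there being only 4 arrays. The plasma cell genes PRDM1, IRF4, XBP1 and TNFRSF17 were among the brightest genes (percentiles 98.7 to 99.5 of mean level), and the B cell genes MS4A1, CD22 and PAX5 were at percentiles 5.87, 22.5 and 41.7. PAX5 was above the limit for testing, as was KRT18, an epithelial gene, at percentile 66.6. SDC1 and CD38, surface markers of plasma cells, were at percentiles 76.0 and 68.4.

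Mitochondria translate the few respiratory chain subunits encoded in their own DNA on a ribosome of their own. It has a small subunit that decodes the mRNA and a large subunit that joins amino acids and passes the chain through an exit tunnel at the inner membrane. Its RNAs come from mitochondrial DNA, whereas all its proteins are made in the cytosol and imported. Some of these proteins descend from bacterial ribosomal proteins and the others are particular to mitochondria. In many cells mTOR signalling promotes the production of mitochondrial proteins.

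The promoters are shown first, as a description of sequence. RefSeq (GRCh38.p14) gave a 300-base window, from 250 bases before to 50 after the gene's start, for 66 of the 73 members. Below are the 150 bases before the start, 5' to 3' on the gene's strand, for 3 members lower on both treated arrays with at least 1 ETS match each, 1 lower member with an NRF1 match, and the member that was most clearly higher. Capitals mark the ETS core CCGGAAG and the NRF1 pattern (GCGCA, any base, then GCGC), each on either strand. ETS factors and NRF1 are transcription factors known for many nuclear genes of mitochondrial function.
MRPL47, chr3:179604639-179604788, minus strand: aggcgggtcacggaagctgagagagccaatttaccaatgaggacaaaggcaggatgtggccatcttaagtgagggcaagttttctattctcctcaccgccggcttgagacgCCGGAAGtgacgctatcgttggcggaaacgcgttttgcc
MRPL20, chr1:1407294-1407443, minus strand: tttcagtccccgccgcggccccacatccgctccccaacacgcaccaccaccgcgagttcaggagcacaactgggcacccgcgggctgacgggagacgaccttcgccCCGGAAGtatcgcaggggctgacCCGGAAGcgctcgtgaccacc
MRPS34, chr16:1773135-1773284, minus strand: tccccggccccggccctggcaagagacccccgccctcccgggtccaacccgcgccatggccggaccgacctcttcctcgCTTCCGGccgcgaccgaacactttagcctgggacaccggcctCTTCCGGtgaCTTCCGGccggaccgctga
MRPS9, chr2:105037919-105038068, plus strand: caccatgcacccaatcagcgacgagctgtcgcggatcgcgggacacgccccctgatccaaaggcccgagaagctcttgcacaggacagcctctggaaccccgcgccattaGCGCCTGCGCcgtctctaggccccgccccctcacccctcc
MRPL36, chr5:1799838-1799987, minus strand: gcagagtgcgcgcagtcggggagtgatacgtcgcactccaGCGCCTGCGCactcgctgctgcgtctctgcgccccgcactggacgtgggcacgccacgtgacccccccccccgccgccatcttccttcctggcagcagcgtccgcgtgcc
MRPS34 holds 3 ETS matches in these 150 bases and MRPL20 holds 2, while MRPL36, with treated values above both controls, holds 1 NRF1 match. The lower members shown were picked for holding a match. MRPS2, MRPL50, MRPL16 and MRPL18, also lower on both treated arrays, hold neither pattern in their 150 bases.

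Searched on both strands, the ETS core was present in 28 of 66 member promoters (42.4%), against 19.8% of 8883 promoters of tested genes and 10.7% of all 27305 promoters. Members with the ETS core were lower on both treated arrays in 21 of 28 cases, with a median log2 difference of -0.21. Those without it were in 24 of 38, with a median of -0.26, where 29.2% of all tested genes were. The difference between these 2 sets of members was not tested. The NRF1 pattern was in 8 member promoters (12.1%, against 12.0% of tested genes), and its palindromic form, with T as the free base, in 1 of them, MRPL17. The YY1 pattern (AAGATGG then CGGC) was in 9 (13.6%, against 2.21%) and the E-box CACGTG, bound by MYC, in 6 (9.09%, against 10.3%). With the NRF1, YY1 and E-box patterns, 5 of 8, 6 of 9 and 3 of 6 members were lower (medians -0.17, -0.21 and -0.09). Without them 40 of 58, 39 of 57 and 42 of 60 were (medians -0.24, -0.23 and -0.24). These splits were not tested either. Median GC content was 60.2% in member promoters and 65.3% in those of tested genes. A match is a description of the sequence, not a binding site.

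After VS-5584 most mitochondrial ribosomal protein genes were slightly lower, in both subunits. In the large subunit 31 of 48 genes had both treated values below both control values, where 29.2% of the 11026 genes tested were, and in the small subunit 18 of 25 were. Over the members together this is 67.1%. Higher on both treated arrays were 2 members, against a background of 14.7%, while 10 members were higher after cyclic loess normalization (20.4% of all genes) and 10 without treated replicate 2 (33.3% of all genes). The median log2 difference (VS-5584 minus control) was -0.23 in the large and -0.23 in the small subunit, a 1.17-fold and a 1.18-fold lower level, against -0.06 over all genes tested. The upper quartile of the differences was -0.08 in the large and -0.09 in the small subunit. No member exceeded 1.44-fold.

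**Figure D1:**
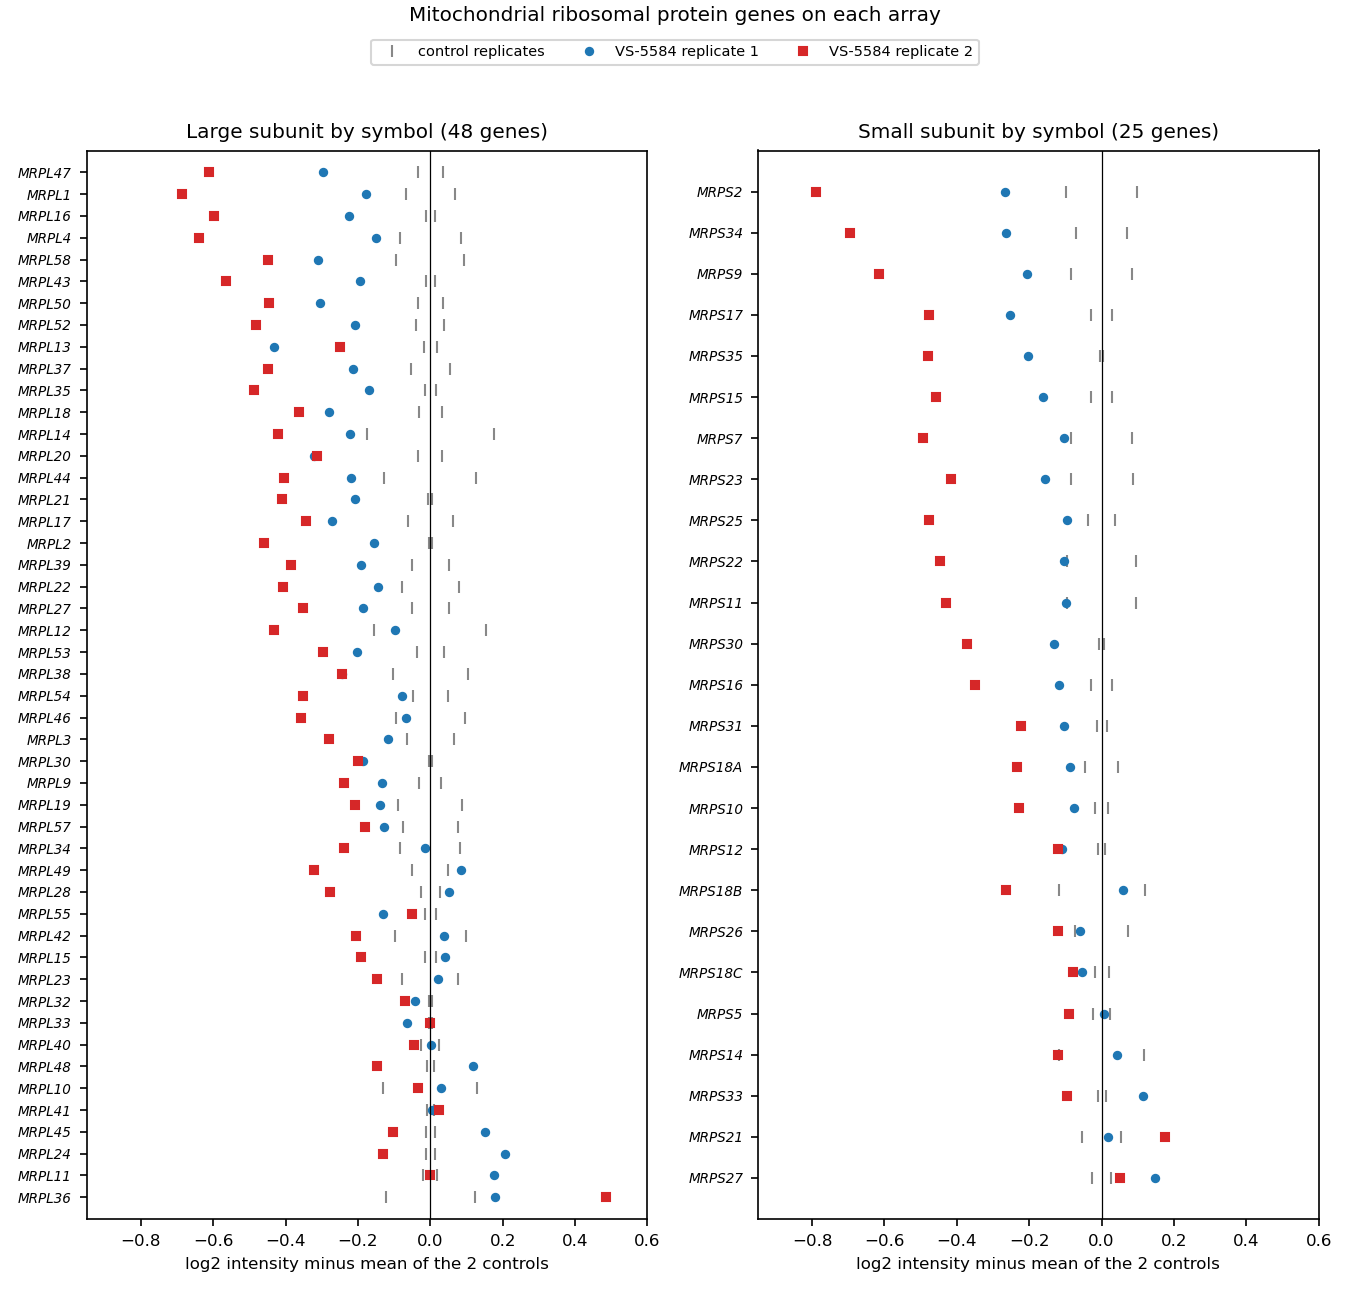
Log2 intensity of each of the 48 large-subunit (left) and 25 small-subunit (right) genes on each array, minus the mean of the 2 controls of that gene. Grey ticks are the control replicates, blue circles VS-5584 replicate 1 and red squares replicate 2, and genes are ordered by their mean difference. Replicate 2 lies to the left of replicate 1 for 65 of the 73 genes (89.0%), and is the lower of the 2 for 72.2% of all tested genes. Within the interquartile range of the members' levels it is the lower for 83.8% of the members and 91.6% of all genes.

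No single member passed the test. With limma, 0 of 73 members had an adjusted p under 0.05, as did 0% of all genes tested, and the smallest was 0.375, for MRPL47. At an unadjusted p under 0.05, 14 large-subunit genes and 5 small-subunit genes were lower and none higher, against 8.93% and 1.49% of all genes. The number passing depended on which array was left out. Without treated replicate 1, 27 members had an adjusted p under 0.05, as did 2636 of all genes (23.9%), and without treated replicate 2 no member did, against 0.0181% of all genes. These fits have 1 treated array, which is assumed to vary as the 2 controls do.

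Brightness moves with this result. Members had a median level of 7.69 on the log2 scale, against 6.83 over all tested genes, and treated replicate 2 was compressed, with 1.74 log2 units between its quartiles against 1.93 to 1.95 on the other 3 arrays. Tested genes were split by level into 10 equal groups. On that array their median distance from the control mean was 0.06 in the dimmest group and -0.32 in the seventh. It was -0.16 in the brightest group, so the shift was widest at middle to high levels. The 2642 tested genes within the interquartile range of the members' levels (7.22 to 8.69) had a median difference of -0.17, and 39.9% of them were lower on both treated arrays.

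Of the 73 members, 37 lie in this range of levels, and 24 of the 37 (64.9%) were lower on both treated arrays, with a median of -0.25. The difference between these members and the other genes of the range was not tested. On treated replicate 2 their median was -0.31 and that of all genes in the range -0.31, with 31 of the 37 (83.8%) and 81.5% of the genes below both controls. On treated replicate 1 their median was -0.12, against -0.026 in the range, with 25 of the 37 (67.6%) and 41.0% below both controls. Of all 73 members, 66 (90.4%) were below both controls on replicate 2 and 50 (68.5%) on replicate 1, against 60.1% and 34.6% of all tested genes. Without treated replicate 2 the medians were -0.14 in the large and -0.10 in the small subunit, against -0.0022 over all genes. After cyclic loess normalization, which removes trends with brightness, the medians were -0.12 and -0.11 against -0.01, and 25 and 11 genes were lower and 7 and 3 higher on both treated arrays, against 24.4% and 20.4% of all. The direction held for both subunits under this and median centring.

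**Figure D2:**
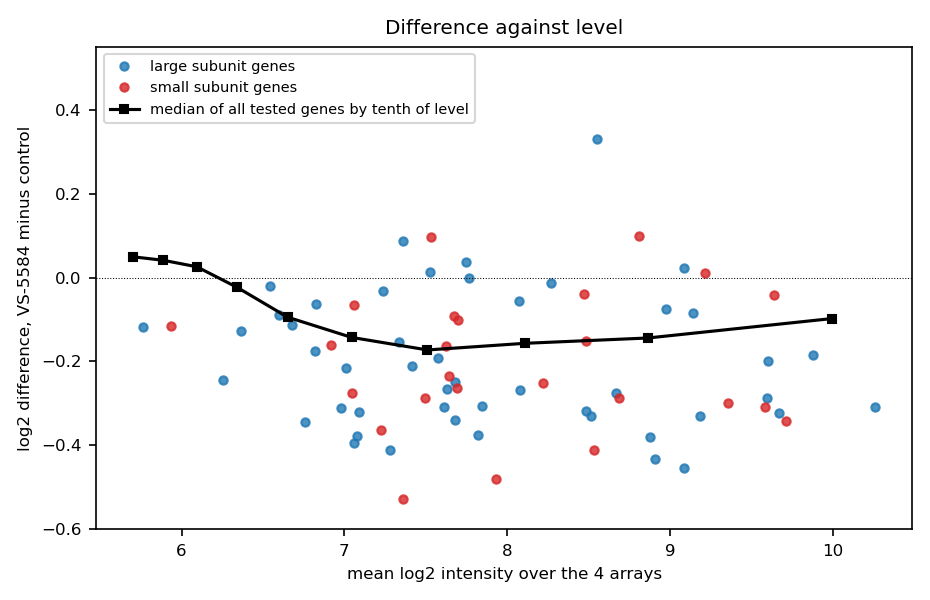
Log2 difference (VS-5584 minus control) of each member against its mean log2 intensity over the 4 arrays, large subunit in blue and small in red. The black line joins the medians of all tested genes in 10 equal groups by level, which run from 0.05 in the dimmest group to -0.17 in the seventh, and most members brighter than 7 lie below it.

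**Figure D3:**
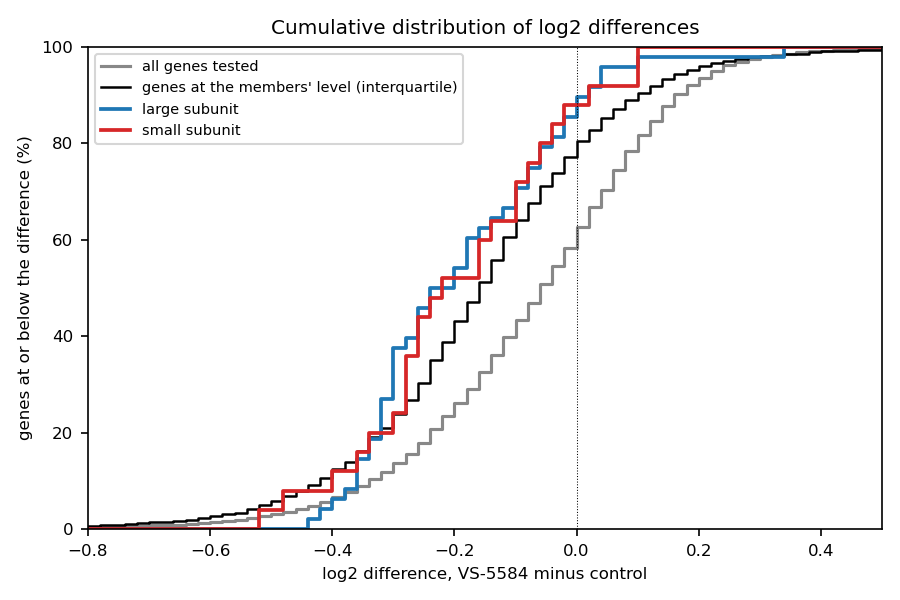
Cumulative share of genes (%) at or below each log2 difference for all 11026 tested genes (grey), the 2642 within that interquartile range of levels (black), and the large (blue) and small (red) subunit. Both subunit curves lie to the left of the grey curve through most of the range. At the lowest differences they lie close to or under the black curve. From -0.28 to zero they lie above it, at 45.8% (large) and 44.0% (small) against 30.3% at -0.26. At zero the values are 89.6% and 88.0% against 80.4%.

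In the large subunit, MRPL47, the mitochondrial form of ribosomal protein uL29 near the tunnel exit, had the smallest p. Its log2 levels were 9.28 and 9.35 in the controls and 9.02 and 8.70 in treated cells, a difference of -0.45 ± 0.15 (SE; limma adjusted p = 0.375). Both treated values lay below both controls, and its promoter is the first shown above. MRPL16, the uL16 protein beside the tRNA sites, stood at 7.48 and 7.50 in controls and at 7.26 and 6.89 in treated cells, a difference of -0.41 ± 0.15. The second treated value was below the first one, as for most members and most tested genes. MRPL1, the protein of the mobile L1 stalk where spent tRNA leaves, stood at 9.19 and 9.06 against 8.95 and 8.44, a difference of -0.43 ± 0.18. Without treated replicate 2 its difference shrank to -0.18. MRPL43, a mitochondria-specific protein, stood at 7.26 and 7.28 against 7.08 and 6.70.

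A few large-subunit genes were about equally low on both treated arrays. MRPL20, homologous to a bacterial protein needed for assembly of the large subunit, stood at 8.61 and 8.67 in controls and at 8.32 and 8.33 in treated cells, a difference of -0.32 ± 0.13 (limma adjusted p = 0.452). MRPL18, a protein of the central protuberance, stood at 9.87 and 9.80 against 9.55 and 9.47, also -0.32 ± 0.13. In both genes the gap between groups was wider than the gap within either group. MRPL58, a peptidyl-tRNA hydrolase built into the ribosome that can release stalled chains, stood at 8.98 and 9.16 against 8.76 and 8.62. MRPL50, a mitochondria-specific protein, stood at 7.97 and 8.04 against 7.70 and 7.56. Their differences were -0.38 ± 0.14 and -0.38 ± 0.13, with no overlap between groups. In MRPL13 treated replicate 1 was clearly the lower array, with 7.87 and 7.83 in controls against 7.42 and 7.60.

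MRPL36 went the other way. This small zinc-binding protein (bL36) stood at 8.26 and 8.51 in controls and at 8.57 and 8.87 in treated cells, a difference of 0.33 ± 0.16 (SE; limma adjusted p = 0.504). The groups barely separated, and its difference without treated replicate 2 was 0.18. It was the 1 large-subunit gene higher on both treated arrays.

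Other large-subunit genes with known roles were lower by less, or differed little. MRPL44, which has the fold of an RNase III enzyme, stood at 7.26 and 7.01 against 6.91 and 6.73. MRPL3, the uL3 protein near the catalytic centre, stood at 9.77 and 9.64 against 9.58 and 9.42. Both had groups that did not overlap, and differences of -0.31 ± 0.15 and -0.20 ± 0.14. MRPL12, the stalk protein that recruits translation factors, overlapped between groups, at 7.61 and 7.92 against 7.66 and 7.33. MRPL45, which anchors the ribosome to the inner membrane, stood at 9.06 and 9.09 against 9.22 and 8.97, with treated values on both sides of the controls. MRPL41, at 7.51 and 7.53 against 7.52 and 7.54, had 4 nearly equal values. The differences of MRPL45 (0.02 ± 0.14) and MRPL41 (0.01 ± 0.13) turned to -0.022 and -0.031 with median centring.

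In the small subunit, MRPS2, the uS2 protein, showed the widest difference of all members. Its log2 levels were 7.53 and 7.72 in controls and 7.36 and 6.84 in treated cells, a difference of -0.53 ± 0.18 (SE; limma adjusted p = 0.401). Treated replicate 2 lay at -0.79 from the control mean against -0.27 for replicate 1. MRPS34, a mitochondria-specific protein that stabilises the small subunit, stood at 8.10 and 8.25 against 7.91 and 7.48, a difference of -0.48 ± 0.17. Its promoter holds the 3 ETS matches shown above. MRPS9, a protein of the head, stood at 8.82 and 8.66 against 8.53 and 8.12, a difference of -0.41 ± 0.16. MRPS17, a protein of the body, stood at 7.38 and 7.43 against 7.15 and 6.93, a difference of -0.36 ± 0.14. In all 4 genes both treated values were below both controls.

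MRPS35, MRPS15, MRPS23 and MRPS7 were also lower without overlap. MRPS35, a mitochondria-specific protein of the head, stood at 9.88 and 9.89 in controls and at 9.68 and 9.41 in treated cells. MRPS15 (uS15) stood at 9.77 and 9.71 against 9.58 and 9.28. MRPS23 stood at 8.75 and 8.92 against 8.68 and 8.41. For MRPS7, which nucleates the head in its bacterial form, the first treated value (9.40) was only just below the lower control (9.42), and the second was 9.01. The differences ran from -0.34 ± 0.14 for MRPS35 to -0.29 ± 0.15 for MRPS23. MRPS16 and MRPS22, both mutated in inherited respiratory chain deficiency, differed by -0.23 ± 0.14 and -0.27 ± 0.16, again with no overlap.

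MRPS12, the uS12 protein of the decoding centre, was among the dimmest members. It stood at 6.002 and 5.98 in controls and at 5.88 and 5.87 in treated cells, without overlap. The difference of -0.11 ± 0.13 (SE) was smaller than its standard error. MRPS27, an RNA-binding protein with pentatricopeptide repeats, was the 1 small-subunit gene higher on both treated arrays, at 8.79 and 8.74 against 8.91 and 8.81. Its difference of 0.10 ± 0.13 was smaller than its standard error.

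The MRPS18 genes are paralogues of 1 bacterial protein whose products occupy different places. MRPS18C stood at 7.11 and 7.07 in controls and at 7.04 and 7.01 in treated cells, and MRPS18A at 6.95 and 7.04 against 6.91 and 6.76. MRPS18B overlapped between groups, at 7.63 and 7.87 against 7.81 and 7.48. The differences were -0.07 ± 0.13, -0.16 ± 0.13 and -0.10 ± 0.16, and those of MRPS18C and MRPS18B turned to 0.045 and 0.036 after cyclic loess. MRPS18A and MRPS30 carry small-subunit symbols but sit in the large subunit. MRPS30 stood at 8.35 and 8.34 against 8.22 and 7.98, a difference of -0.25 ± 0.14. With both counted in the large subunit, 33 of 50 large-subunit and 16 of 23 small-subunit genes were lower on both treated arrays. Of all tested genes 29.2% were.

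Over all members, 24 had a difference below -0.3, 28 lay from -0.3 to -0.1, 20 lay within 0.1 of zero and 1, MRPL36, was above 0.1. Proteins with a bacterial homologue and mitochondria-specific ones gave like values. In the large subunit 20 of 30 homologues and 11 of 18 specific genes were lower on both treated arrays, with medians of -0.23 and -0.23. In the small subunit, by symbol, 10 of 13 and 8 of 12 were, with medians of -0.23 and -0.21. The 12 counted as specific include MRPS18A and MRPS18B, although these are paralogues of a bacterial protein. They also include MRPS30, which like MRPS18A sits in the large subunit. By place in the ribosome, 2 of 5 genes of the exit tunnel (median -0.06), 4 of 7 of the central protuberance (-0.24), 2 of 5 of the stalks (-0.25), 5 of 7 of the small-subunit head (-0.16) and 7 of 9 of its body (-0.26) were lower on both treated arrays. The exit tunnel genes counted were MRPL22, MRPL23, MRPL24, MRPL44 and MRPL45. MRPL47 (-0.45), described above as near the tunnel exit, was not in that list. These groups by place are small and their differences were not tested. By level, the 24 brightest members had a median of -0.29, the 25 in the middle -0.23 and the 24 dimmest -0.17.

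Among mitoribosomal proteins with other symbols, CHCHD1 and PTCD3 were lower on both treated arrays and DAP3 and GADD45GIP1 were not. CHCHD1, of the small subunit, stood at 7.37 and 7.66 in controls and at 7.24 and 7.02 in treated cells. PTCD3, a pentatricopeptide protein at the mRNA entry, stood at 9.67 and 9.54 against 9.43 and 9.19. DAP3, the GTP-binding protein of the small subunit, stood at 11.02 and 10.86 against 10.90 and 11.03, with full overlap. GADD45GIP1, of the large subunit, stood at 6.66 and 6.74 against 6.73 and 6.62.

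The factors that build and run this ribosome were followed as lists. Of 12 tested genes of mitochondrial transcription and RNA processing, 8 were lower on both treated arrays, with a median of -0.32. Of 26 assembly factors 14 were lower (median -0.19), of 15 mitochondrial aminoacyl-tRNA synthetases 8 (median -0.14), and of 14 translation factors 4 (median -0.14), against the 29.2% of all genes. In the fit without a replicate block none of these genes had a limma adjusted p under 0.05. At an unadjusted p under 0.05 there were 4, 2, 2 and 2 lower (33.3%, 7.69%, 13.3% and 14.3%) and none higher. Of all genes tested 8.93% were lower and 1.49% higher at that limit. Translation factors on treated replicate 1 had a median of 0.04, the 1 of these lists above zero there. After cyclic loess the 4 lists had 8, 10, 8 and 4 lower genes in the same order. These were 66.7%, 38.5%, 53.3% and 28.6% of each list, against 24.4% of all genes. Higher on both treated arrays were 0, 2, 0 and 2, against 20.4% of all genes. The medians were -0.20, -0.08, -0.08 and -0.03, against -0.01 over all genes. The translation factor list also held SLIRP and LRPPRC, which stabilise mitochondrial mRNAs, and both were among its 4 lower genes. The list of transcription and RNA processing also held the DNA polymerase POLG, which was lower on both treated arrays. The lists were drawn from textbook knowledge and their differences from the ribosomal proteins were not tested.

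Within these lists the lowest p belonged to SLIRP, which with LRPPRC stabilises mitochondrial mRNAs. SLIRP stood at 8.64 and 8.97 in controls and at 8.34 and 8.19 in treated cells, a difference of -0.54 ± 0.15 (SE; limma adjusted p = 0.323), and LRPPRC differed by -0.16 ± 0.13. GFM1, the elongation factor that moves the ribosome along the mRNA, differed by -0.44 ± 0.16. Among assembly factors ERAL1 and FASTKD2, which bind the small- and large-subunit ribosomal RNA, differed by -0.45 ± 0.18 and -0.45 ± 0.15. The tRNA processing enzyme ELAC2 and the DNA polymerase POLG differed by -0.47 ± 0.16 and -0.36 ± 0.14, and the synthetases NARS2 and MARS2 by -0.45 ± 0.17 and -0.34 ± 0.15. In all of these the groups did not overlap. TFAM, which packages and transcribes mitochondrial DNA, differed by -0.35 ± 0.15 without overlap, whereas the RNA polymerase POLRMT overlapped, at 7.43 and 7.76 against 7.48 and 7.46.

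Cytosolic ribosomal protein genes, chosen by symbol, had the opposite direction. Of 63 tested, 22 were higher (34.9%) and 5 lower (7.94%) on both treated arrays, against 14.7% and 29.2% of all genes, with a median log2 difference of 0.10 and medians of 0.07 and 0.14 on treated replicates 1 and 2. The median stayed above zero with median centring (0.05) and cyclic loess (0.14). They are far brighter, with a median level of 11.00 against 7.69 for the mitochondrial ones, and many have pseudogenes that can share their signal. RPL22 stood at 9.68 and 9.41 against 10.01 and 9.84, and RPL26L1, a paralogue of RPL26, at 9.36 and 9.43 against 9.18 and 8.98. Nuclear-encoded subunits of the respiratory chain and ATP synthase, which assemble with the products of the mitochondrial ribosome, had 29 of 70 lower (41.4%, against 29.2% of all genes) and 1 higher, with a median of -0.13. Their median level was 9.18, and among all tested genes of the ninth and the tenth level group of the plot of differences against level 43.1% and 41.1% were lower. After cyclic loess 13 of the 70 were lower (18.6%, against 24.4% of all genes) and 9 higher, with a median of -0.04. NDUFA2 and NDUFB6, subunits of complex I, differed by -0.40 ± 0.15 and -0.35 ± 0.15. The differences between these families and the members were not tested.

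**Figure D4:**
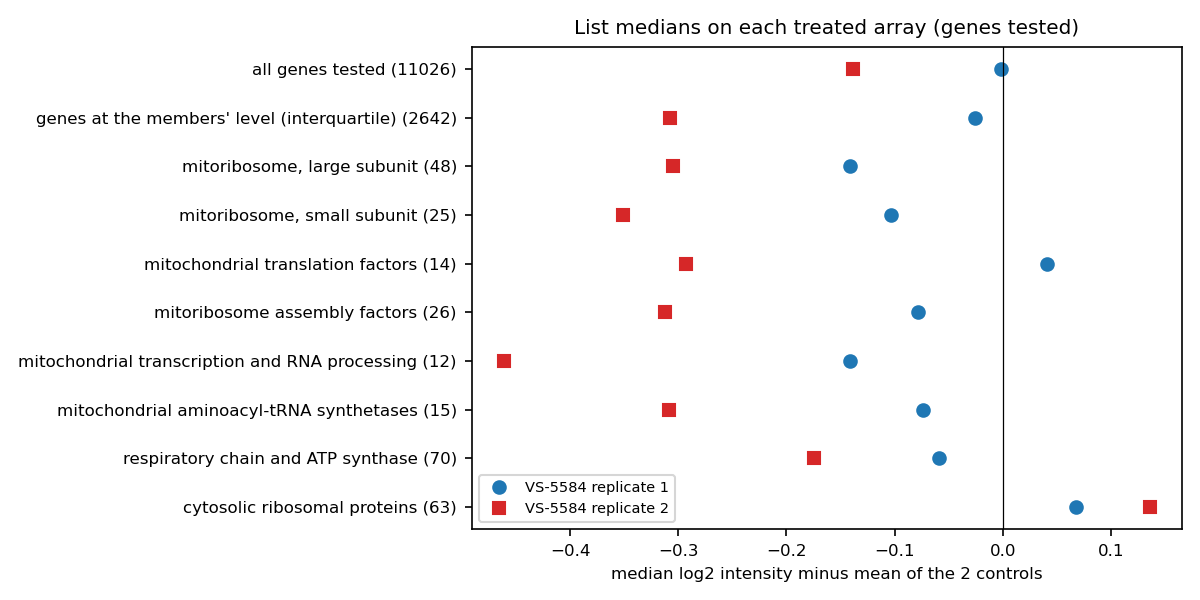
Median log2 intensity minus the mean of the 2 controls for each list, on treated replicate 1 (blue circles) and replicate 2 (red squares), with the number of genes tested in brackets. The large and small mitoribosome subunits lie at -0.14 and -0.10 on replicate 1, and cytosolic ribosomal proteins are above zero on both arrays.

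Some of these genes start close to a neighbour read the other way. The share of all genes that do so was not counted. Of the 66 members with a RefSeq start, 20 had a head-to-head neighbour within 1000 bases, and 16 of these neighbours were tested, counting the pair MRPL46 and MRPS11 from both sides. Of these 16 neighbours 10 were lower on both treated arrays and none higher, against 29.2% and 14.7% of all tested genes, with a median log2 difference of -0.19, while 11 of their 16 members were lower, with a median of -0.17. The following pairs were chosen after their values were seen. MRPL57 (-0.15) lies beside SKA3, a kinetochore gene (-0.86), MRPL27 (-0.27) beside EME1, an endonuclease subunit gene (-0.51), and MRPL32 (-0.06) beside the proteasome gene PSMA2 (-0.28). In these pairs the neighbour differed by more than the ribosomal gene. MRPS2 (-0.53) and MRPL50 (-0.38) had neighbours, PIERCE1 and ZNF189, at -0.01 and -0.18.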

How the data were processed

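The authors deposited a linear intensity for each of 28869 probe sets on every array. The submitters' processing notes name RMA, without a version. How RMA values, usually log2, became these intensities is not stated. Per the labels' protocols, column-purified total RNA was made into biotin-labelled cDNA. Intensities were turned into log2 values without further normalization. An added constant, if any, would make differences of dim genes too small.

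Of 19310 probe sets with 1 gene, 19279 were matched to RefSeq symbols by gene ID. The brightest probe set stood for each of 18377 genes, and the dimmest 40% (below an intensity of 48.9) were left out, leaving 11026. Each gene was tested in limma 3.58.1 under R 4.3.3 (lmFit, eBayes, two-sided, Benjamini-Hochberg over all genes tested, threshold 0.05). The code was tested on simulated data. SE is that of the model, and "lower on both treated arrays" means below both controls.

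Genes described are, per subunit, the 8 smallest p-values, up to 3 higher without overlap, and a fixed panel. From each other list they are the 2 smallest p-values and a fixed panel. The members and lists were chosen with earlier results of these data known. Alternatives were the replicate block, scaling, filter, background, variance trend, probe-set, subunit and left-out-array choices. Genes at the members' level, and the comparison lists under other scalings, were added after the data were seen. Figures used matplotlib 3.10.9.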

Additional observations from a re-analysis of the deposited data

How the results depend on the processing

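Both subunits kept a median below zero under every alternative tried, but several of these could not change it. The filters that kept every member, the variance trend, the mean of probe sets and the replicate block left the members' differences as they were. The median of all tested genes was -0.11 after median centring. Cyclic loess lowered the count of lower small-subunit genes to 11 and moved the medians to -0.12 (large) and -0.11 (small). Leaving out 1 array at a time gave medians of -0.31 to -0.14 (large) and -0.35 to -0.10 (small) and 0 to 27 members past the adjusted threshold, the 27 without treated replicate 1. The titles' replicate numbers were not shown to pair the cultures (with 2 pairs, deviations correlated at 0.16). The fit with the replicate block put 1 member past the threshold, MRPS2 (limma adjusted p = 0.0309), and SLIRP (0.0235), among 432 genes. Counts of lower genes do not use the block, and each group holds both replicate numbers. The counts and the differences therefore could not change in this fit. Genes near zero turned sign: MRPL41 (-0.031), MRPL45 (-0.022) and DAP3 (-0.021) with median centring, and MRPS18B (0.036), MRPS18C (0.045), GADD45GIP1 (0.049) and POLRMT (0.0077) with cyclic loess. With 1 array left out, MRPS18B ran from -0.26 to 0.058, DAP3 from -0.055 to 0.10, GADD45GIP1 from -0.083 to 0.031, POLRMT from -0.29 to 0.039 and MRPL45 from -0.10 to 0.15. The causes were not tested. No scanner values were used, so signal over background is unknown.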
